A study of Mus musculus with 67 samples.

Results

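RNA from small intestinal crypts of irradiated mice given the drugs VPA and EPZ6438 (+VE) was compared with RNA from irradiated mice without them, 3 days after irradiation. The 4 libraries were chosen by their labels, 2 of each kind, from 67 libraries in the series, of which 18 were of crypts and 49 of organoids. C57BL/6 females of 8 weeks received a single dose of 12 Gy, and the +VE mice were then gavaged daily with 40 mg/kg VPA (valproic acid, an inhibitor of histone deacetylases) and 0.6 mg/kg EPZ6438 (tazemetostat, an inhibitor of the histone methyltransferase EZH2). The labels say of the other group only that it was irradiated, and whether it was gavaged with vehicle is not given in the sources used here. Each group held 2 mice and the crypts were not sorted. The isolation protocol in the labels, worded alike for organoids and crypts, names EDTA and the proximal small intestine, while the methods on irradiated mice say only small intestine. The question put by the design was which genes differ in the regenerating crypt when both drugs are given.

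The crypt is the pocket at the base of the villi in which Lgr5+ stem cells divide and Paneth cells secrete defensins. Irradiation kills most dividing stem cells, after which surviving cells enter a regenerative state marked by Clu (clusterin, the marker of revival stem cells), by fetal genes and by YAP target genes, and repopulate the crypt. Histone deacetylases remove acetyl groups that accompany active chromatin, and EZH2 is the catalytic subunit of PRC2, which writes the repressive mark H3K27me3.

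The epithelial label held in all 4 libraries. Epcam, an adhesion molecule of epithelial cells, stood at 239 and 300.1 TPM in irradiated replicates 1 and 2 and at 532 and 515 TPM in +VE replicates 1 and 2. The Paneth cell lysozyme Lyz1 stood at 1467 and 3278 TPM against 3164 and 5451 TPM. Among defining markers, the stem cell receptor Lgr5 was low, at 0.122 and 0.0912 TPM against 0.926 and 1.59 TPM, below the minimum for testing, and normal crypts held 0.55 and 1.52 TPM. Pou2f3, the transcription factor of tuft cells, was at 0.36 TPM or less in these libraries and in normal crypts.

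The libraries differed in general before any gene was singled out. The irradiated libraries listed 8152 and 8564 genes at 1 TPM or more and the +VE libraries 10692 and 10712, where the other 14 crypt libraries held 9370 to 11089. Mitochondrially encoded genes took 48.4% and 37.9% of the TPM in the irradiated libraries and 41.5% and 25.4% in the +VE libraries. In the authors' TPM, 9032 of 10050 tested genes (89.9%) had a higher mean in +VE crypts, and the median difference on the log2(TPM + 1) scale was 0.71. After quantile normalization, which gives every library the same distribution, the median difference was -0.06, so differences below are positions relative to the other genes, and "rose" and "fell" are used in that sense. In bulk RNA, fewer cells of a type and less RNA per cell cannot be told apart.

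On this scale 889 genes rose in +VE crypts, 8.85% of those tested, and 360 fell, 3.58% (limma, adjusted p under 0.05 and at least 2-fold). Without adjustment 4377 genes had p under 0.05. On the normalized scale the groups were apart in 66.6% of all tested genes and in every called gene, so a lack of overlap below is a description of the values. Genes with a mean under 1 TPM in a group reached the minimum level for testing only through the other group, so their values are given as a description and their tests support nothing. Among the called genes named below these were Iqsec1, Eif5b, Zc3h18, Plec, Stat2, Axin2, Sox9, Msi1, Mki67, Smc4, Rfc1, Sytl2, Smarca4, Chd4, Xist and Tcof1, all low in irradiated crypts, and Ocm, Cyp3a25 and Scgn, low in +VE crypts, beside the lung genes and receptor segments described as such. All 889 genes that rose also had a higher mean in the authors' TPM, and 336 of the 360 that fell also had a lower one. With no normalization beyond TPM, 99.8% of calls were rises instead of 71.2%, and with scaling to the 75th percentile 99.2%. The count rested on single libraries, with 473 genes called without +VE replicate 1, 668 without irradiated replicate 1 and 1249 with all.

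The differences ran along transcript length. Genes with the shortest transcripts (158 to 1520 bases) had a median log2 difference of -0.39, the next 3 of 5 equal classes of length -0.20, -0.04 and 0.14, and those with the longest transcripts (4573 to 93147 bases) 0.45. Of the longest class, 454 of 2009 genes rose and 20 fell, while in the shortest 28 of 2011 rose and 162 fell. The irradiated libraries carried most of this slope. Their short genes lay 0.43 and 0.42 above the mean of the 18 crypt libraries and their long genes deviated from it by -0.47 and -0.32, whereas the +VE libraries deviated by -0.05 and 0.20 for short genes and by 0.18 and -0.01 for long genes. The longest class exceeded the shortest by 0.84 (+VE minus irradiated), and by 0.55 without +VE replicate 1.

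**Figure D1:**
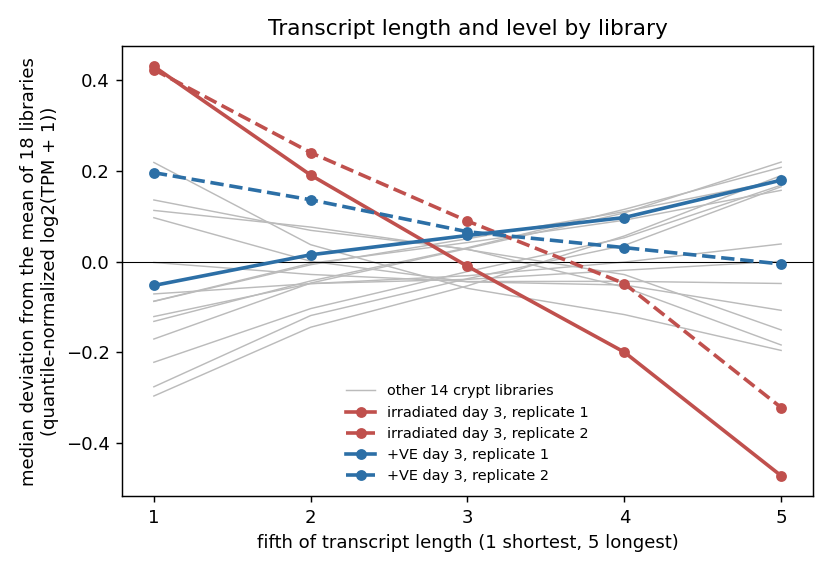
Median deviation of genes from their mean over 18 crypt libraries (vertical axis, quantile-normalized log2(TPM + 1)) against the class of transcript length (horizontal axis, 5 classes of equal size, 1 shortest to 5 longest). Coloured lines are the 4 day 3 libraries and grey lines the other 14; both irradiated day 3 libraries fall from above 0.4 in the shortest class to below -0.3 in the longest.

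With each library's trend along transcript length removed, 568 genes rose (5.65% of those tested) and 349 fell (3.47%), and 524 of the rises and 190 of the falls were among those called before. A stricter alternative, chosen after seeing the data, took the slope of each library as a covariate of the fit. It left 6 genes, of which Scgb1a1, Sftpc, Cbr2 and Adamtsl4 were higher and Slc13a1 (a sulfate transporter) and Slc16a5 (a monocarboxylate transporter) lower in +VE crypts. In day 3 libraries the slope and the treatment go together, so what belongs to each cannot be told apart. Gene groups below have their median beside that with the length trend removed, which over all genes were -0.06 and -0.05. With the slope as a covariate the lists described here, lung genes apart, kept 0 calls, and their medians, of 0.05 over all genes, became 0.08 for immediate early genes, 0.30 for attachment genes, 0.38 for stem cell genes, 0.22 for revival markers, 0.44 and -0.67 for the high and low parts of the regeneration signature, -1.01 for enterocyte genes and 0.27 for chromatin regulators.

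Which group of libraries stood apart from the rest of the crypts differed between rises and falls. Of the 889 genes that rose, 555 had both irradiated day 3 libraries below the other 16 crypt libraries (62.4%, against 11.8% of all tested genes), and 122 had both +VE libraries above all others (13.7%, against 5% of all). Of the 360 that fell, 115 had both +VE libraries below all others (31.9%, against 5.77%) and 100 had both irradiated libraries above all others (27.8%, against 11.4%). Among the rises, 19 genes had both irradiated libraries below and both +VE libraries above all others. With 555 against 122, low values in the irradiated libraries were more frequent among the rises than high values in the +VE libraries.

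Among the largest rises were genes of the cytoskeleton and of cell attachment. Myh9, the heavy chain of non-muscle myosin IIA (chr15:77760587-77842175, GRCm38), stood at 1.28 and 1.41 TPM in irradiated and at 59.7 and 38.6 TPM in +VE crypts. The groups did not overlap, and the irradiated libraries lay below the other 16, which held 4.62 to 63.3 TPM. Its log2 difference was 3.73 ± 0.59 (SE, n = 2 and 2, adjusted p = 0.0022). Itgb4, the integrin of hemidesmosomes, rose by 2.86 ± 0.44 (adjusted p = 0.0019), from 2.23 and 3.91 TPM to 57.1 and 38.5 TPM. The myosin Myo18a rose by 2.94 ± 0.63 (adjusted p = 0.0071, but 0.0705 without +VE replicate 1).

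The same ranking held genes of RNA handling. Hnrnpu, an RNA-binding protein of the nuclear matrix, stood at 4.46 and 6.49 TPM in irradiated and at 69.1 and 68.1 TPM in +VE crypts, a log2 difference of 2.76 ± 0.35 (adjusted p = 0.0010). Eif5b, a translation initiation factor, rose by 2.69 ± 0.39 and the RNA-processing factor Zc3h18 by 2.68 ± 0.40 (adjusted p = 0.0016 and 0.0017). Atg9b, a membrane protein of autophagosome formation, rose by 2.92 ± 0.53. Iqsec1, an exchange factor for ARF6, stood at 0.22 and 0.05 TPM against 5.25 and 11.6 TPM (2.82 ± 0.72, adjusted p = 0.015), and its adjusted p lay between 0.058 and 0.075 without either irradiated library or without +VE replicate 2. Iqsec1, Eif5b and Zc3h18 passed the minimum level through the +VE libraries alone, so their tests support nothing.

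In the hemidesmosome and basement membrane list 10 of 16 tested members rose and 0 fell, beside 8.85% and 3.58% of all tested genes. Values were above 0 for 14 and below for 2, with a median of 1.18. The median length of these transcripts was 5686 bases, and 22.6% of all genes in the longest class rose. With the length trend removed the median was 0.53 and 4 members still rose, beside 5.65% of all tested genes. Lama3, a laminin chain of the epithelial basement membrane, stood at 0.80 and 1.39 TPM against 16.6 and 9.53 TPM (1.99 ± 0.26, adjusted p = 0.0011). The integrin Itga3 followed with 3.67 and 5.98 against 27.5 and 23.5 TPM (1.40 ± 0.22, adjusted p = 0.0019). Plec, which links hemidesmosomes to keratin, rose by 2.13 ± 0.47 and Itga6, the partner of Itgb4, by 1.17 ± 0.27, and both lost the call without +VE replicate 1 (1.60, adjusted p = 0.0861, and 0.77, adjusted p = 0.105), Itga6 also without irradiated replicate 1 (0.0767) and with the length trend removed (0.90).

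Immediate early genes, which encode the AP-1 factors and relatives that are transcribed within minutes of growth factor or stress signals, had a median of 1.17, and of 1.33 with the length trend removed. Of 20 tested members 12 rose and 0 fell, beside 8.85% and 3.58% of all tested genes. With the trend removed 13 rose, beside 5.65% of all tested genes. The median length of their transcripts was 2223 bases. The sequences before the starts of Fos, Fosb and Jun are printed because these 3 genes of one dimer family rose together. They are the 250 bases before the annotated start (RefSeq, GRCm38.p6), on chr12:85473640-85473889 (plus strand), chr7:19310046-19310295 (minus strand) and chr4:95052223-95052472 (minus strand), 5′ to 3′ in the direction of the gene, with TGACG, the core of the cAMP response element, in capitals on either strand.
Fos: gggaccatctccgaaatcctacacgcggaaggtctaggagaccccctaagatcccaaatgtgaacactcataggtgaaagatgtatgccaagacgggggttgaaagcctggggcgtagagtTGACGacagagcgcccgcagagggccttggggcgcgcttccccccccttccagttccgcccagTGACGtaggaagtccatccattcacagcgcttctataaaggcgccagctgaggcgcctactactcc
Fosb: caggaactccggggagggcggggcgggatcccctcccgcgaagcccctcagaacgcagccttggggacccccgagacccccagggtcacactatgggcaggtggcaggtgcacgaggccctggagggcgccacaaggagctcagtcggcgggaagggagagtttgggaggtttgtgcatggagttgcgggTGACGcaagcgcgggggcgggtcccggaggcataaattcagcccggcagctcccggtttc
Jun: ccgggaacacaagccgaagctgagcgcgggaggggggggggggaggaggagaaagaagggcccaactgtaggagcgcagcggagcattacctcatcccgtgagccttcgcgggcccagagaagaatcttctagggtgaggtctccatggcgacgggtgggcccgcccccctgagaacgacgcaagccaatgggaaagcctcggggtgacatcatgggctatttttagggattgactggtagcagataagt
TGACG, searched on both strands, was found in 8 of the 17 promoters of the list that could be matched and in 17.9% of 27025 promoters. Fos held 2 matches, Fosb 1 and Jun 0. The AP-1 motif TGANTCA was in 0 of 17 (6.87% of all), and the CArG box, the site of serum response factor, in 1 of 17 (1.4% of all). Egr1 was not among the 17 promoters. Neither sequence beyond the 250 bases nor other spellings of a site were searched, so a missing match does not show that a site is absent. A match is a description of the letters and not a site in use.

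Egr1, a zinc finger factor of the immediate early response, stood at 2.45 and 1.98 TPM in irradiated and at 46 and 23.6 TPM in +VE crypts, where normal crypts held 108 and 185 TPM. The groups did not overlap, and both lay below normal crypts. Its log2 difference was 2.65 ± 0.57 (adjusted p = 0.0071). Fos stood at 25.3 and 25 against 169 and 100 TPM (1.86 ± 0.53, adjusted p = 0.022), with 480 and 848 TPM in normal crypts. Fosb rose by 2.62 ± 0.69, Jun by 2.10 ± 0.55, the orphan receptor Nr4a1 by 1.78 ± 0.54, the differentiation factor Klf4 by 2.14 ± 0.59 and Jund by 1.08 ± 0.26. For all 7 of these genes the adjusted p without +VE replicate 1 lay above the threshold, between 0.0789 for Egr1 and 0.188 for Fos and Nr4a1. Fosb, Jun, Fos and Nr4a1 also lost the call without either irradiated library (0.0558 to 0.0993), Jund without irradiated replicate 1 (0.061) and Klf4 without irradiated replicate 2 (0.107). +VE replicate 1 was the higher +VE library in each of them.

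Markers of the fetal-like and revival state differed to unequal extents. Clu (chr14:65968483-65981547, GRCm38) stood at 84.5 and 142 TPM in irradiated and at 506 and 580 TPM in +VE crypts. All other crypt libraries held 3.30 to 71.1 TPM, so that irradiated day 3 crypts were above them and +VE crypts higher still. Its log2 difference was 1.92 ± 0.32 (adjusted p = 0.0024), and it passed without any 1 of the 4 libraries. Msln (mesothelin, a surface glycoprotein of the fetal-like state) stood at 8.16 and 25.5 TPM against 63.5 and 73.6 TPM, again with no overlap, and rose by 1.57 ± 0.38 (adjusted p = 0.010). It lost the call without irradiated replicate 1 (1.02, adjusted p = 0.114) or +VE replicate 1 (1.55, adjusted p = 0.0715).

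In the whole revival list 3 of 25 tested members rose and 0 fell, beside 8.85% and 3.58% of all tested genes, so the share of rises was near that of all genes. The median was 0.43, and 0.57 with the length trend removed. In 14 of the 25, both +VE libraries lay above the other 16 crypt libraries, against 5% of all tested genes, and among them were Clu, Msln, Anxa1, Anxa3, Il1rn and Krt7. The other screening markers of the study did not pass. Ly6a, which encodes SCA1, stood at 322 and 498 against 447 and 565 TPM, so the groups overlapped (0.08 ± 0.51, adjusted p = 0.92, and -0.38 in the authors' TPM relative to the median change). Anxa1, a calcium-dependent phospholipid binder, stood at 141 and 163 against 185 and 237 TPM (0.16 ± 0.32, adjusted p = 0.72, and -0.25 relative to the median change). The antimicrobial lectin Reg3b stood at 12580 and 13710 against 8391 and 10840 TPM (-0.62 ± 0.48, adjusted p = 0.34).

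The injury-associated signature used in the study was defined on published data of 3 injury models, irradiation among them, and not on these samples. Of its genes listed as high in regenerating epithelium, 17 of 60 tested rose and 0 fell, beside 8.85% and 3.58% of all tested genes. Their medians were 0.39 and, with the length trend removed, 0.42. Sulf2, an extracellular sulfatase, stood at 3.27 and 5.41 TPM against 37.9 and 32.8 TPM (2.05 ± 0.25, adjusted p = 0.00081). Complement C3 stood at 1.61 and 0.96 against 9.67 and 25.5 TPM (2.07 ± 0.53, adjusted p = 0.014, but 1.69 and 0.0709 without irradiated replicate 2, and 1.43 and 0.0921 without +VE replicate 2). Stat2, a factor of interferon signalling, and Plk2, a kinase induced by stress, rose by 1.38 ± 0.34 and 1.13 ± 0.30, and both lost the call without +VE replicate 1 (adjusted p = 0.0997 and 0.178), Stat2 also without irradiated replicate 2 (0.0701) and Plk2 without irradiated replicate 1 (0.0946).

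Of the genes listed as low in regenerating epithelium, 17 of 48 tested fell and 0 rose, beside 3.58% and 8.85% of all tested genes. Their median was -0.88, and -0.79 with the length trend removed, when 14 fell, beside 3.47% of all tested genes. In 30 of the 48, both +VE libraries lay below the other 16 crypt libraries, against 5.77% of all tested genes. Many members are known as enzymes and transporters of mature enterocytes. Sult1d1, a sulfotransferase, stood at 19.7 and 7.42 TPM against 5.45 and 6.13 TPM, with no overlap (-1.84 ± 0.43, adjusted p = 0.0097). The carbonic anhydrase Car4 stood at 5.00 and 5.02 against 3.89 and 2.86 TPM (-1.49 ± 0.28, adjusted p = 0.0035), and it passed without any 1 of the 4 libraries. Khk, which phosphorylates fructose, fell by 1.48 ± 0.36 and the carboxylesterase Ces1f by 1.55 ± 0.37. Without irradiated replicate 1, in which Sult1d1, Khk and Ces1f were highest, they lost the call (-1.11, -0.80 and -1.12, adjusted p = 0.0948, 0.118 and 0.0998), and likewise without +VE replicate 1 (adjusted p = 0.0707, 0.0844 and 0.0876).

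**Figure D2:**
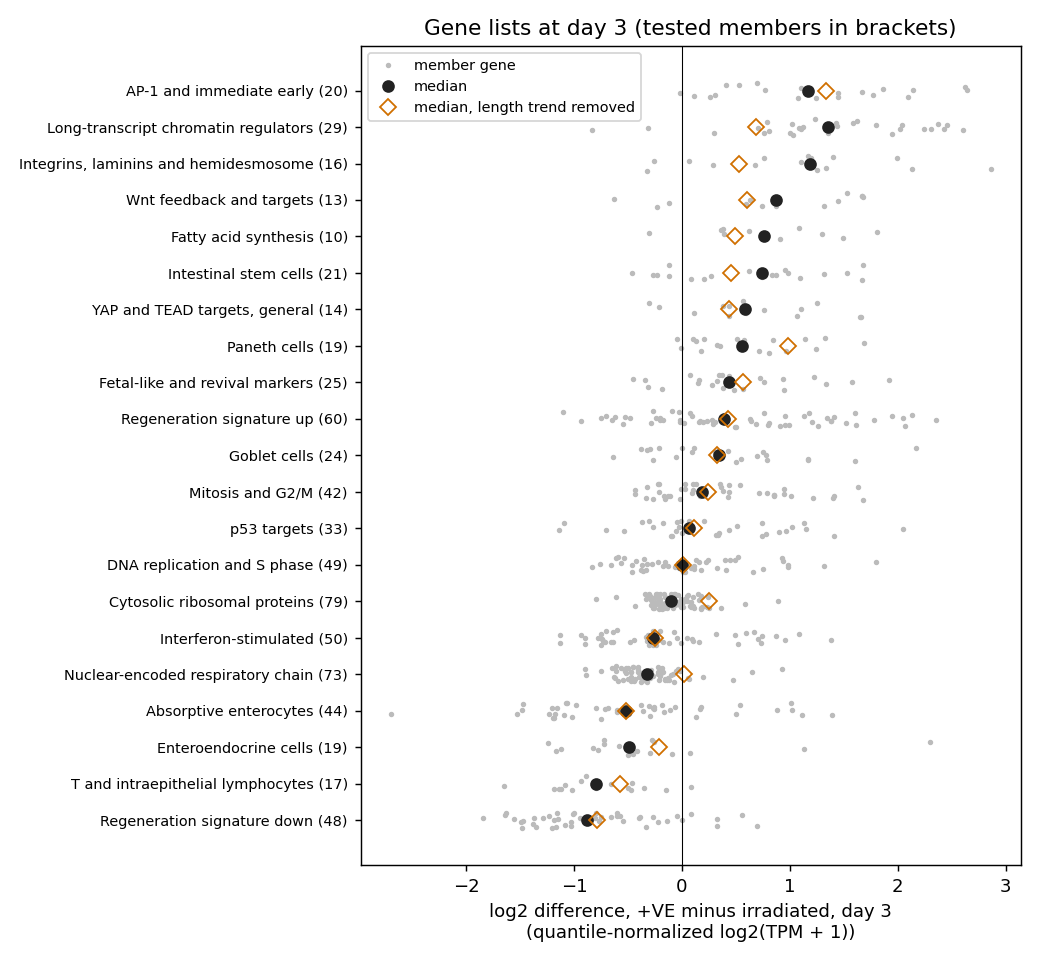
Log2 differences (+VE minus irradiated, day 3, quantile-normalized) of tested members of 21 gene lists, 1 grey dot a gene, with the median as a black circle and the median after removal of the length trend as an orange diamond. Immediate early genes have medians of 1.17 and 1.33 and the low signature of regeneration -0.88 and -0.79, while long-transcript chromatin regulators drop from 1.35 to 0.68.

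Of 44 tested genes of absorptive enterocytes 7 fell and 4 rose, and 34 had values below 0, with a median of -0.51. The share of rises was near the 8.85% of all tested genes, and that of falls stands beside 3.58%. With the length trend removed 8 fell and 1 rose, with a median of -0.52. Slc6a19, the apical carrier of neutral amino acids (chr13:73679745-73704865, GRCm38), stood at 42.8 and 20.7 TPM against 19.5 and 12.3 TPM (-1.53 ± 0.35, adjusted p = 0.0085). The lowest irradiated library was only just above the highest +VE library. The peptidase Enpep, the fructose and glucose carrier Slc2a2 and the bile acid exporter subunit Slc51a fell by 1.20, 1.18 and 1.19, though the groups of Enpep and Slc2a2 overlapped in TPM. All 4 lost the call without irradiated replicate 1 (adjusted p = 0.0895 to 0.173) or +VE replicate 2 (adjusted p = 0.0548 to 0.17). The starch-digesting enzyme Mgam, with a transcript of the longest class, rose by 1.39 ± 0.47 from 17.8 and 13.1 to 81.4 and 47 TPM, and it lost the call with the length trend removed and without either irradiated library or +VE replicate 1 (adjusted p = 0.075, 0.187 and 0.327).

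The largest falls outside immune receptor segments had uneven values. Leap2, a secreted antimicrobial peptide of enterocytes, stood at 104 and 15.2 TPM against 11.6 and 13.1 TPM, so that irradiated replicate 1 alone was far from the others (-2.25 ± 0.69, adjusted p = 0.031, and -0.88, adjusted p = 0.235, without that library, and adjusted p = 0.137 and 0.0743 without +VE replicates 1 and 2). Fabp6, the ileal bile acid binding protein, stood at 30.3 and 124 against 36.2 and 4.91 TPM. These groups overlapped in TPM but not after quantile normalization (-2.62 ± 0.85, adjusted p = 0.039, and -1.11, adjusted p = 0.251, without +VE replicate 2, and adjusted p = 0.0583 and 0.194 without irradiated replicates 1 and 2), and crypts of all other groups held 355 to 4091 TPM. Ocm (oncomodulin, a calcium binder) and Cyp3a25 (a cytochrome P450) fell by 2.09 and 1.93 from levels of at most 3.29 TPM, and lost the call without +VE replicate 1 (adjusted p = 0.078 and 0.126), Cyp3a25 also without +VE replicate 2 (0.14).

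The rest of the 12 largest falls were segments of immune receptors. They were Igkv10-94, Igkv3-1, Igkv10-96, Trbv15, Iglc1, Ighv9-1, Igkv4-59 and Trbv12-2, with log2 differences from -3.57 to -1.93. Igkv10-94 stood at 16.7 and 1.66 TPM against 0.26 and 0 TPM, and Igkv3-1 at 4.08 and 1.11 TPM against 0 and 0. Near-identical segments can share reads, so single segments are uncertain, and Ighv9-1 overlapped in TPM. Apart from Igkv10-94 and Igkv3-1, they lost the call without +VE replicate 1 (adjusted p = 0.105 to 0.279), and without irradiated replicate 1 Igkv10-94 and Igkv3-1 were below the minimum for testing. Over the 69 segments tested, 18 fell and 1 rose (3.58% and 8.85% of all genes), but segments like these reached the minimum level only through the group in which they were high, so nothing is read from this count. The summed level of T and intraepithelial lymphocyte genes was 1070 and 299 TPM in irradiated and 359 and 508 TPM in +VE crypts, so the groups overlapped in TPM. On the normalized scale 16 of 17 tested members had values below 0, with medians of -0.80 and -0.57 with the length trend removed, and 1 fell (Cd3d, with overlap in TPM, -1.65 ± 0.50, adjusted p = 0.028, and 0.257 and 0.211 without irradiated or +VE replicate 1). Of B and plasma cell genes 1 of 3 tested fell (Jchain, -1.69 ± 0.36, adjusted p = 0.0062, and 0.0687 and 0.0645 without irradiated or +VE replicate 1), with list medians of -1.03 and -0.60. Of myeloid and mast cell genes 2 of 14 fell and all 14 had values below 0, with medians of -0.79 and -0.49, while their sums of 217 and 80.6 against 94.1 and 182 TPM overlapped. The part of these cells in the falls was not tested.

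Of 21 tested stem cell genes 5 rose and 0 fell, beside 8.85% and 3.58% of all tested genes, with a median of 0.74. Of the 5, Axin2, Sox9 and Msi1 reached the minimum level only through the +VE libraries, so nothing is read from the count. With the length trend removed 2 rose, the median was 0.46, and Ephb2 (0.82), Cd44 (0.91) and Msi1 (0.999) were no longer called, being below 2-fold. Sox9, a transcription factor of crypt progenitors (chr11:112782224-112787760, GRCm38), stood at 0.78 and 0.90 TPM in irradiated and at 9.24 and 8.14 TPM in +VE crypts. The irradiated libraries lay below all others, of which normal crypts held 2.31 and 5.20 TPM, and the log2 difference was 1.67 ± 0.23 (adjusted p = 0.0014). The Wnt feedback gene Axin2 rose by 1.68 ± 0.37, the ephrin receptor Ephb2 by 1.53 ± 0.27 and the hyaluronan receptor Cd44 by 1.32 ± 0.26. The RNA-binding protein Msi1 rose by 1.09 ± 0.29. Without +VE replicate 1, Axin2 (1.37, adjusted p = 0.082), Cd44 (1.14, adjusted p = 0.0577) and Msi1 (1.27, adjusted p = 0.0547) lost the call, Msi1 also without irradiated replicate 1 or +VE replicate 2 (0.0959 and 0.0734). Olfm4, a marker of cycling stem cells, stood at 8.00 and 5.79 against 4.93 and 18.5 TPM, with overlap (-0.46 ± 0.46, adjusted p = 0.46, and 0.46 in TPM with no further normalization). It passed without +VE replicate 2 (-1.35, adjusted p = 0.0291) and was at 0.423 (adjusted p = 0.5) without +VE replicate 1. Normal crypts held 201 and 364 TPM. Of Wnt targets 6 of 13 rose and 0 fell, Axin2 and Sox9 being among the rises, with medians of 0.87 and 0.61 with the length trend removed. Myc, the growth regulator, rose by 1.45 ± 0.23 (adjusted p = 0.0021) from 3.57 and 5.56 to 25.4 and 25.3 TPM.

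Genes of division did not move as a block. Beside 8.85% of all tested genes that rose, of 42 genes of mitosis 6 rose and 0 fell, with medians of 0.19 and, with the length trend removed, 0.24. Of 49 genes of DNA replication 2 rose and 0 fell, with medians of 0.00 and 0.01. Mki67, which coats mitotic chromosomes, was listed at 0.07 and 0.10 TPM in irradiated and at 2.78 and 2.97 TPM in +VE crypts (1.68 ± 0.30, adjusted p = 0.0030), and at 4.29 and 7.14 TPM in normal crypts. It reached the minimum level only through the +VE libraries, so its call is not read as a result, and without +VE replicate 2 it was below that minimum. The condensin subunits Smc4 and Ncapd2 rose by 1.64 ± 0.27 and 1.41 ± 0.31, topoisomerase Top2a by 1.21 ± 0.23 and the clamp loader subunit Rfc1 by 1.80 ± 0.41. Ncapd2 lost the call without irradiated replicate 1 or +VE replicate 1 (adjusted p = 0.0698 and 0.0514), Rfc1 without +VE replicate 1 (adjusted p = 0.0566) and Top2a, below 2-fold, without irradiated replicate 1 or +VE replicate 2 (0.975 and 0.927) and with the length trend removed (0.84). Mki67, Ncapd2, Top2a and Rfc1 have transcripts of the longest class. Replication-dependent histones, of which 0 of 32 listed genes were tested, gave no value.

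Secretory lineages are given beside 8.85% of all tested genes that rose and 3.58% that fell. The gel-forming mucin Muc2 stood at 32.5 and 24.3 TPM in irradiated and at 226 and 129 TPM in +VE crypts, where normal crypts held 77.5 and 170 TPM (2.17 ± 0.61, adjusted p = 0.022, but 1.53 and 0.18 without +VE replicate 1, 0.0633 without irradiated replicate 1 and 0.0886 without irradiated replicate 2). Of goblet cell genes 4 of 24 rose and 0 fell, with medians of 0.34 and 0.33 with the length trend removed, among them Sytl2, a factor of granule transport, by 1.61 ± 0.25 (adjusted p = 0.0019). Of enteroendocrine genes 2 of 19 rose and 3 fell, and 16 had values below 0, with medians of -0.49 and -0.21 with the length trend removed. The granule protein Chgb stood at 15.7 and 11.3 against 107 and 97.8 TPM (2.30 ± 0.48, adjusted p = 0.0059, and 0.0612 without +VE replicate 1), and its relative Chga rose by 1.13 ± 0.39 (adjusted p = 0.044). The secretory granule gene Scg5 and the calcium binder Scgn fell by 1.17 and 1.12, from levels of at most 2.22 TPM with overlap in TPM, and lost the call without +VE replicate 1 (adjusted p = 0.117 and 0.0863), Scg5 also without irradiated replicate 1 (0.136). The hormone neurotensin, Nts, stood at 15.9 and 7.48 against 6.32 and 10.5 TPM and fell by 1.24 ± 0.37 (adjusted p = 0.026), though its groups overlapped in TPM. Chga lost the call without any 1 of the 4 libraries (adjusted p = 0.0589 to 0.239) and Nts without irradiated or +VE replicate 1 (0.247 and 0.201), and Nts, Scg5 and Scgn lost it with the length trend removed (-0.92, -0.84 and -0.83). Of Paneth cell genes 1 of 19 rose (Nupr1, a stress-induced chromatin protein, 1.68 ± 0.38, adjusted p = 0.0079, and 0.0641 and 0.0693 without irradiated or +VE replicate 1), with a median of 0.56 that was 0.98 with the length trend removed, when 5 rose.

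**Figure D3:**
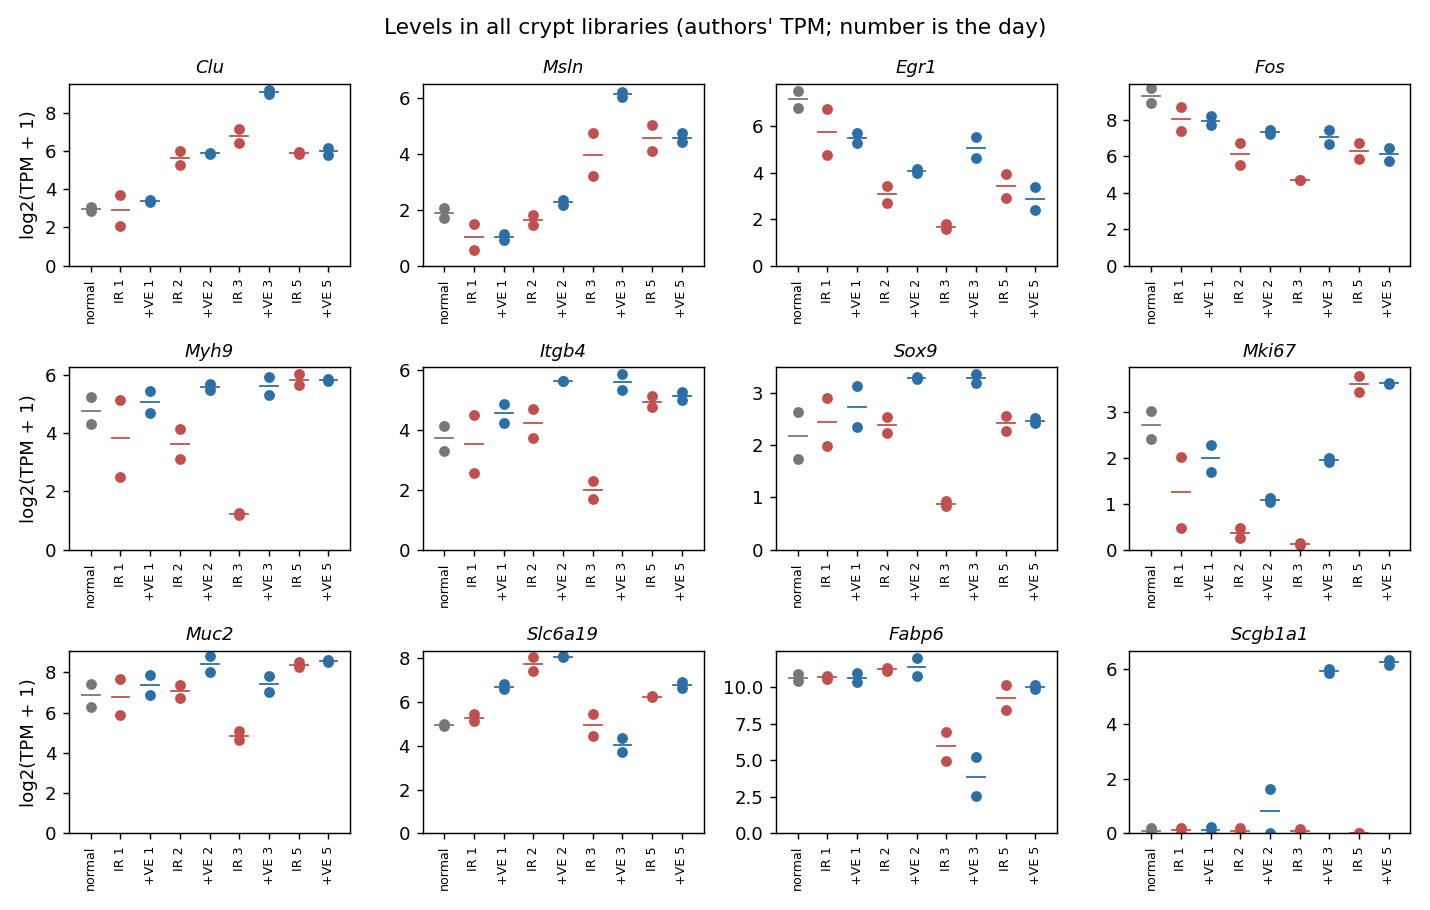
Levels of 12 genes in all 18 crypt libraries (vertical axis, log2(TPM + 1) of the authors' TPM) by group and day (horizontal axis); each point is 1 library and each short bar a group mean. Clu and Msln are highest in +VE crypts of day 3, Myh9, Itgb4, Sox9 and Mki67 are lowest in irradiated crypts of day 3, and Scgb1a1 is high in +VE crypts of days 3 and 5 only.

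The machinery that the drugs act on was covered by 2 lists. PRC2 subunits had medians of 0.40 and, with the length trend removed, 0.23, and 1 of 11 rose, a share near the 8.85% of all tested genes (Aebp2, an accessory subunit, 1.04 ± 0.20, adjusted p = 0.0045, and 0.84 or 0.86, below 2-fold, without +VE replicate 1 or irradiated replicate 2, and 0.59 with the length trend removed, when 0 rose). Ezh2, the target of EPZ6438, stood at 3.03 and 4.73 TPM against 11.5 and 14.3 TPM. Its groups did not overlap, and its log2 difference of 0.62 ± 0.19 (adjusted p = 0.027) was below the 2-fold minimum. None of the 8 histone deacetylases tested passed, and their medians were 0.26 and 0.23.

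Other chromatin regulators were chosen as a list for their long transcripts. Of 29 tested 19 rose and 0 fell, beside 8.85% and 3.58% of all tested genes, with a median of 1.35. With the length trend removed 11 rose and 2 fell, beside 5.65% and 3.47%, with a median of 0.68. Smarca4, the ATPase of the SWI/SNF remodelling complex, stood at 0.84 and 0.99 TPM against 17.1 and 14.4 TPM (2.43 ± 0.34, adjusted p = 0.0014). Each +VE library exceeded each irradiated one. The remodelling ATPase Chd4 rose by 2.37 ± 0.45. Smarca4 and Chd4 reached the minimum level only through the +VE libraries. In 18 of the 29, both irradiated libraries lay below the other 16 crypt libraries, against 11.8% of all tested genes, and in 0 were both +VE libraries above them.

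YAP, the coactivator held back by the Hippo pathway, drives many repair genes with TEAD factors. Of 7 tested targets that the study labels 0 passed, with medians of 0.37 and 0.31 with the length trend removed, when 1 passed. This was the EGF receptor ligand Areg, at 34.2 and 48.6 against 118 and 96.3 TPM (0.94 ± 0.37, adjusted p = 0.075, and 1.27, adjusted p = 0.047, with the length trend removed). Of 14 targets in a general list 5 rose and 0 fell, beside 8.85% and 3.58% of all tested genes, with medians of 0.58 and 0.43. Myof, a membrane repair protein, stood at 1.67 and 2.10 against 14.8 and 15.9 TPM (1.65 ± 0.26, adjusted p = 0.0021). The Hippo regulator Wwc1 rose by 1.66 ± 0.50 and the AP-1 member Fosl1 by 1.10 ± 0.37 (adjusted p = 0.027 and 0.041), and both lost the call without irradiated replicate 1 (0.0993 and 0.313) or +VE replicate 1 (0.189 and 0.367), Wwc1 also without irradiated replicate 2 (0.0701). Values of the study's genes that did not pass were 0.37 for the alarmin Il33, 0.44 for the LIM protein Ajuba, 0.56 for the factor Tead1 (-0.11 with the length trend removed) and -0.49 for the annexin Anxa6 (0.53 in TPM with no further normalization). Amotl2 was below the minimum for testing.

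Of 18 factors of intestinal identity 6 rose and 0 fell, beside 8.85% and 3.58% of all tested genes. Their medians were 0.24 and 0.36 with the length trend removed. Klf5, a factor of crypt proliferation, stood at 5.99 and 7.18 against 33.5 and 28.4 TPM (1.32 ± 0.22, adjusted p = 0.0026), with no overlap. Hnf4a rose by 1.25 ± 0.33, but not with the length trend removed, nor without irradiated replicate 1 (1.17, adjusted p = 0.0886) or +VE replicate 1 (1.00, adjusted p = 0.135). Of lipid genes, Fasn, the synthase of fatty acids, and its regulator Srebf1 rose by 1.49 ± 0.37 and 1.30 ± 0.32, and 3 of 10 genes of the list rose with a median of 0.76. With the length trend removed 1 rose, the median was 0.49, and Fasn was at 0.82 (adjusted p = 0.068). Of 31 genes of fatty acid oxidation and PPAR targets 3 rose and 2 fell, shares near those of all tested genes (8.85% and 3.58%), with medians of -0.06 and -0.05, and 18 had values below 0. The gate of fatty acid oxidation, Cpt1a, rose by 1.34 ± 0.22 (adjusted p = 0.0022) and the mitochondrial carrier Ucp2 by 1.10 ± 0.24 (0.88, below 2-fold, with the length trend removed). The pantetheinase Vnn1 fell by 1.15 ± 0.31 and the peroxisomal enzyme Ehhadh by 1.08 ± 0.28 (adjusted p = 0.017 and 0.013), with overlap in TPM for both, and both lost the call without irradiated replicate 1 (0.15 and 0.14), Vnn1 also without +VE replicate 2 (0.119) and Ehhadh without +VE replicate 1 (0.0952). Without +VE replicate 1, Fasn, Srebf1 and Ucp2 lost the call (adjusted p = 0.0624 to 0.12), Fasn and Srebf1 also without irradiated replicate 1 (0.0841 and 0.0838).

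Of 33 p53 targets 5 rose and 2 fell, beside 8.85% and 3.58% of all tested genes, with medians of 0.07 and 0.11 with the length trend removed, and Cdkn1a, the cell cycle inhibitor p21, stood at 112 and 145 against 164 and 149 TPM (-0.03 ± 0.17, adjusted p = 0.91, and 0.29 in TPM with no further normalization). Eda2r, a p53-induced receptor, fell by 1.14 ± 0.28 with overlap in TPM (adjusted p = 0.012, and 0.0645 and 0.0768 without irradiated replicate 2 or +VE replicate 1). Of 50 interferon-stimulated genes 2 rose and 2 fell, with medians of -0.26 and -0.25, among them Usp18, which removes ISG15, by 1.13 ± 0.38 from 15.6 and 9.74 TPM to 9.29 and 10.1 TPM, with overlap in TPM and no call without irradiated replicate 1 (0.283) or either +VE library (0.164 and 0.0938). Of 79 ribosomal proteins, 73 nuclear genes of the respiratory chain, 31 proteasome subunits, 32 genes of the NRF2 response and 15 of the BCL2 family, 0 passed. The ribosomal and respiratory medians of -0.10 and -0.33 became 0.26 and 0.02 with the length trend removed. Of the 13 mitochondrially encoded proteins 1, mt-Atp6, fell by 1.38 ± 0.37 (adjusted p = 0.018), and not without irradiated replicate 1 or +VE replicate 2 (0.125 and 0.0969) nor with the length trend removed (-0.975, adjusted p = 0.063). Among the 13, mt-Atp8 held the first rank in these libraries, so that quantile normalization gives it the same value in each and it has no test.

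RNA not known from crypts was in the +VE libraries. Scgb1a1, the secretoglobin of airway club cells (chr19:9083636-9087958, GRCm38), had the largest rise of all, from 0.10 and 0 TPM to 63.3 and 57.7 TPM (6.07 ± 0.34, adjusted p = 6.2e-07). It stood at 79.7 and 70.6 TPM in +VE crypts of day 5, at 2.04 TPM in +VE replicate 2 of day 2 and at 0.16 TPM or less elsewhere. Sftpc, the surfactant protein of alveolar cells, was at 17.5 and 12.4 TPM against 0.04 and 0.04 TPM (3.99 ± 0.23). Both +VE libraries were far above both irradiated ones. From a lung list added after seeing the data, Retnla, Scgb3a2 and Cbr2 also rose, with 2.46 to 3.46 TPM in +VE crypts and at most 0.02 TPM in irradiated crypts. These genes reached the minimum level only through the +VE libraries, so no count is read from the list.

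Pancreatic acinar genes summed to 69.6 and 242 TPM in irradiated and to 240 and 1780 TPM in +VE crypts, and 0 of 13 passed, with medians of 1.78 and, with the length trend removed, 1.92. The 3 tested RNAs that stay in the nucleus had higher values in +VE crypts, as many long transcripts did. Their median was 2.59, and 1.94 with the length trend removed, when Neat1 was still called (1.94, limma adjusted p = 0.036). Neat1, the scaffold of paraspeckles, stood at 1.28 and 0.92 against 31.8 and 18 TPM (2.89 ± 0.78, adjusted p = 0.018), Xist at 0.22 and 0.07 against 8.91 and 5.13 TPM (2.59 ± 0.64, adjusted p = 0.013), and Malat1 at 2.80 and 0.41 against 34.9 and 11.5 TPM (2.57 ± 0.95, adjusted p = 0.061). Neat1 and Xist lost the call without irradiated replicate 1 (0.0694 and 0.0547) or +VE replicate 1 (0.141 and 0.108), and Neat1 without irradiated replicate 2 (0.0715). Malat1 ranged from 1.51 without irradiated replicate 2 to 3.65 without irradiated replicate 1, and passed without +VE replicate 2 (3.49, adjusted p = 0.0437). The sum of all 8 nuclear-retained RNAs listed was 4.68 and 2.00 TPM in irradiated and 76.9 and 37.8 TPM in +VE crypts, where irradiated replicate 2 of days 1 and 2 held 4.04 and 6.28 TPM and all other crypts 15.7 to 71.2 TPM. The part of any of these RNAs in the differences of other genes was not tested.

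**Figure D4:**
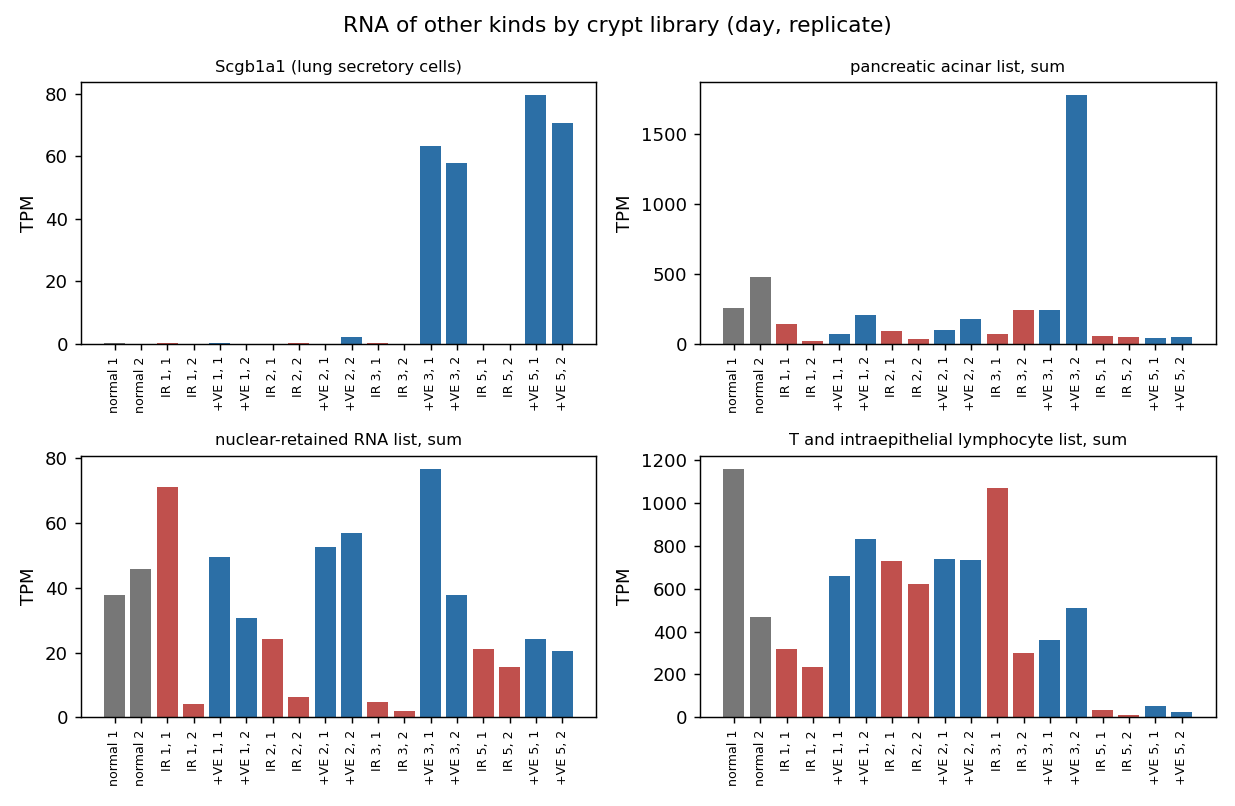
TPM (vertical axis, linear) of Scgb1a1 and summed TPM of 3 gene lists in each crypt library (horizontal axis, group, day and replicate; grey normal, red irradiated, blue +VE). Scgb1a1 reaches 57.7 to 79.7 TPM in +VE libraries of days 3 and 5, the acinar sum 1780 TPM in +VE replicate 2 of day 3, and nuclear RNA is at 2 to 6.28 TPM in 4 irradiated libraries and at 15.7 TPM or more elsewhere.

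The day 3 difference was then set against the mean of the differences on days 1, 2 and 5, each with its own irradiated libraries. The contrast was higher for 449 genes (4.47% of those tested) and lower for 185 (1.84%), and at an unadjusted p under 0.05 it differed for 2947. Of the 889 rises at day 3, 420 were among the first, and of the 360 falls 136 among the second. The counts rested on single libraries, with 14 genes without irradiated replicate 1, 58 without +VE replicate 1 and 320 without +VE replicate 2. Clu passed with a contrast of 1.91, Egr1 with 2.86 and Slc6a19 with -2.10. Sox9, at 1.56, reached the minimum level for testing only through the +VE libraries. The day 3 difference is part of this contrast, so genes named for that difference gain no separate support from it. Of immediate early genes 7 of 20 were higher, of the genes low in regeneration 14 of 48 lower and of enterocyte genes 8 of 44 lower. The medians of the last 2 lists were 0.06 and 0.65 on day 1, 0.13 and 0.42 on day 2, -0.88 and -0.51 on day 3 and 0.21 and 0.48 on day 5. Length slopes were smaller on the other days, with medians for the shortest and longest classes of -0.13 and 0.10 on day 1, -0.30 and 0.26 on day 2 and -0.03 and 0.00 on day 5.

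**Figure D5:**
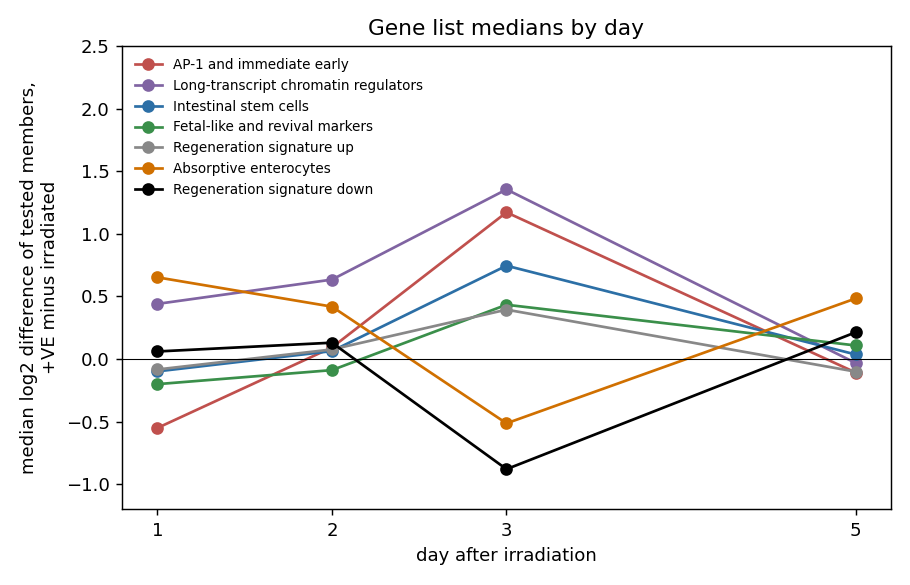
Median log2 difference (vertical axis, +VE minus irradiated) of tested members of 7 gene lists on days 1, 2, 3 and 5 after irradiation (horizontal axis, to scale). Immediate early genes are at -0.55, 0.09, 1.17 and -0.11, and enterocyte genes and the low signature of regeneration are below 0 on day 3 alone.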

How the data were processed

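Per the labels, total RNA was sequenced in pairs of reads, and, by the submitters' processing notes, Trimmomatic 0.39, STAR 2.7.3a and featureCounts were used with the build mm10. The authors deposited TPM (counts per transcript length, scaled per library) in 1 table of 29579 genes, and the step from counts to TPM is not given in the sources used here. TPM keeps no depth, so the depth behind a value and its counting error are unknown. The level of a gene in TPM depends on the transcript length it was divided by. 0 columns had no sample.

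Members, gene lists and tests were chosen with earlier results of these data known. In R 4.3.3, log2(TPM + 1) was quantile-normalized over 18 crypt libraries, and genes averaging 1 TPM or more in the 4 day 3 libraries were fitted with limma 3.58.1 (9 groups, 9 residual degrees of freedom, eBayes with trend and robust), so that adjusted p-values (Benjamini-Hochberg, over all tested genes) draw their spread from all groups. Folds of low genes are understated by the pseudocount of 1. Named genes are the 12 largest rises and falls among called genes without overlap on the normalized scale (predicted genes skipped), up to 6 called and 4 abundant members of each of 50 lists, and genes the study names, of which those that carry a result are given, and a few genes that meet the rule are not reported here. Transcript lengths are those of the longest basic GENCODE transcript on GRCm38 and matched 29574 genes. The length trend was a loess curve (span 0.3) per library, and the slope covariate the median deviation of the longest of 5 length classes minus that of the shortest. On simulated data with 10050 genes, 95 of 100 planted changes of 2 and 97 of 100 of 3 on the log2 scale were recovered in the day 3 comparison, with 8 unchanged genes called, and 91 and 99 with 5 in the contrast between days. Alternatives were other scalings, filters, pseudocounts and fits, the replicate block, and each library left out. Organoid libraries were not analysed here.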

Additional observations from a re-analysis of the deposited data

Results flagged for a closer look

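Many genes were named for a large day 3 difference, which is itself part of the contrast below, so passing it is partly built in. Genes with a mean under 1 TPM in a day 3 group reached the minimum level only through the other group. Among them are Mki67, Sox9, Ocm and the lung genes, and their contrasts support nothing. Limma's contrast of the day 3 difference with the mean of days 1, 2 and 5 was called for 55 of the named genes. Each has its log2 contrast below, all at an adjusted p under 0.05; without irradiated replicate 1 the contrast called 14 genes in all instead of 634.

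Among lung genes the contrasts were 3.94 for Scgb1a1, 2.65 for Sftpc, 1.45 for Retnla, 1.47 for Scgb3a2 and 1.51 for Cbr2. These reflect low values on days 1 and 2, since the day 5 differences of 5.78, 3.60, 1.69, 1.55 and 1.28 in the same order were close to or somewhat below those of day 3. In the cytoskeleton and attachment they were 2.97 for Myh9, 2.26 for Itgb4, 1.70 for Lama3 and 1.11 for Itga3. Genes of RNA handling, the nucleolus and chromatin had 2.34 for Hnrnpu, 2.30 for Eif5b, 2.01 for Zc3h18, 2.27 for Ddx23, 2.43 for Ncl, 2.43 for Nolc1, 2.16 for Tcof1, 2.01 for Smarca4 and 1.98 for Chd4. Immediate early and regenerative genes had 2.86 for Egr1, 2.86 for Fosb, 1.34 for Jund, 1.91 for Clu, 1.62 for Msln, 1.62 for Sulf2 and 1.56 for Myof.

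Stem cell, cycle and identity genes had 1.56 for Sox9, 1.42 for Ephb2, 1.12 for Cd44, 1.42 for Myc, 1.36 for Mki67, 1.48 for Smc4, 1.37 for Ncapd2, 1.09 for Top2a, 1.63 for Rfc1 and 1.16 for Klf5. Secretory and lipid genes had 1.62 for Nupr1, 1.22 for Sytl2, 2.22 for Chgb, 1.57 for Fasn and 1.21 for Cpt1a, and the autophagy gene Atg9b 2.47.

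On the lower side the contrasts were -2.82 for Leap2, -2.22 for Sult1d1, -1.29 for Car4, -1.65 for Khk, -1.85 for Ces1f, -2.10 for Slc6a19, -1.65 for Enpep, -1.74 for Slc2a2, -1.57 for Vnn1, -1.25 for Ehhadh and -2.09 for Ocm. Immune receptor segments had -3.19 for Igkv10-94, -2.53 for Igkv3-1 and -1.82 for Trbv12-2.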

How the results depend on the processing

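The count of 1249 genes was 3362 with no normalization beyond TPM, 2876 with scaling to the 75th percentile, 624 at a minimum of 5 TPM, 2910 with no minimum fold and 6 with the slope of length as a covariate, and leaving out single libraries gave 473 to 1644. The contrast with other days, 634 genes, gave 1585 with TPM alone, 6 with the slope and 14 to 989 without single libraries, and the length difference 0.548 to 1.044. Replicate numbers did not pair the libraries (correlation 0.035), and a replicate block called 1277 and 736 genes.

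Signs turned for Olfm4, Anxa6 and Cdkn1a with TPM alone (0.462, 0.527 and 0.292) and with the 75th percentile (0.267, 0.4 and 0.078), and for Tead1 and Cdkn1a with the length trend removed (-0.109 and 0.051). With the slope they turned for Reg3b 0.508, Fos -0.243, Mgam -0.397, Olfm4 0.355, Muc2 -0.019, Wwc1 -0.068, Ajuba -0.085, Tead1 -0.365, Hnf4a -0.078 and Malat1 -0.188, and relative to the median change of TPM for Ly6a -0.384 and Anxa1 -0.252. Without single libraries Ly6a ranged from -0.15 to 0.304, Cdkn1a from -0.271 to 0.212 and Olfm4 from -1.35 to 0.423. The cause was not tested. With the day 3 libraries alone in the fit 85 of 107 named genes kept their direction and their side of the threshold, and likewise 85 with the length trend removed. With 2 mice a group and unknown depth, small differences of low genes were not detectable. Settings that took a gene below the minimum level gave no value for it.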

Other observations

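Genes of the nucleolus, where ribosomal RNA is made, were a list added after seeing the data, so their count supports nothing beyond itself. Of 32 tested, 14 rose and 0 fell (8.85% and 3.58% of all tested genes), with medians of 0.89 and, with the length trend removed, 0.67. Nucleolin, Ncl, which packs and processes ribosomal RNA, stood at 9.26 and 16.1 TPM in irradiated and at 111 and 133 TPM in +VE crypts (2.66 ± 0.36, limma adjusted p = 0.0014). Its partner Nolc1 stood at 1.21 and 2.13 against 24.3 and 27.9 TPM (2.61 ± 0.30, adjusted p = 0.00081), and Tcof1, a cofactor of RNA polymerase I, at 0.21 and 0.18 against 6.60 and 8.43 TPM. In 14 of the 32, both +VE libraries lay above the other 16 crypt libraries, against 5% of all tested genes, while the cytosolic ribosomal proteins had 0 calls.

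Splicing factors, added in the same way, rose in 22 of 40 and fell in 0, against 8.85% and 3.58% of all tested genes, with medians of 1.11 and 0.94. The helicase Ddx23 stood at 1.53 and 2.14 against 27.8 and 26 TPM (2.54 ± 0.31, adjusted p = 0.00081). Srsf5, a serine and arginine rich factor, stood at 16.8 and 15.5 against 102 and 112 TPM (2.11 ± 0.50, adjusted p = 0.010, and 0.0773 without +VE replicate 1). In 10 of the 40, both irradiated libraries were below all other crypts, against 11.8% of all tested genes, and in 2 both +VE libraries were above them, which is the 5% found over all genes.

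Outside every list, the extracellular protein Adamtsl4 was named after its values were seen, as 1 of 6 genes called with the slope of length as a covariate. It stood at 0.24 and 0.18 TPM in irradiated and at 4.41 and 4.60 TPM in +VE crypts (1.88 ± 0.19, adjusted p = 0.00039), and reached the minimum level for testing only through the +VE libraries. The lower genes of the 6 were Slc13a1, at 5.85 and 7.46 against 5.11 and 4.35 TPM, and Slc16a5, at 6.18 and 6.14 against 4.67 and 3.73 TPM. Both had higher levels in normal crypts, 19.7 and 21.2 TPM for Slc13a1 and 46.5 and 54.6 TPM for Slc16a5.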
